A study of Mus musculus with 16 samples.

Results

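The bile acid transport and FXR target genes described here are the receptor gene Nr1h4 (encoding FXR), its induced targets Nr0b2, Fgf15, Fabp6, Slc51a and Slc51b, and the bile acid importer gene Slc10a2, which FXR signaling lowers. They were taken by gene symbol from the normalized count tables of the duodenum, jejunum and ileum, and are 7 of the 48440 genes listed there. RNA-Seq had been performed on GFP+ cells sorted from the small intestine of female Lgr5-EGFP mice, in which EGFP is expressed from the stem cell gene Lgr5. After 16 weeks on a high-fat (60%) diet, the mice received either vertical sleeve gastrectomy (VSG), in which most of the stomach is removed along its greater curvature, or sham surgery. Tissue was taken 4 weeks later, 15 minutes after a liquid meal, as 6 cm of each segment, and cells positive for CD45, CD31, annexin V or Sytox blue were removed before the sort. The 16 libraries came from 7 mice. Mice A12, B13, B14 and B8 (VSG) and B10 and B1 (sham) gave 1 duodenal and 1 jejunal library each, so that 4 VSG libraries faced 2 sham libraries there. Mice B8 and B9 (VSG) and B10 and B1 (sham) gave the 4 ileal libraries.

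Bile acids released into the gut with a meal are taken up again mainly in the ileum. The apical transporter ASBT (Slc10a2) carries them into the enterocyte, the bile acid binding protein encoded by Fabp6 holds them in the cytosol, and the heterodimer OSTα-OSTβ (Slc51a and Slc51b) passes them to the portal blood. Inside the cell they activate FXR, which raises Fabp6, Slc51a, Slc51b, the corepressor SHP (Nr0b2) and the hormone FGF15, a signal to the liver to make less bile acid, and lowers Slc10a2.

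Implied depth was 10.9 to 63.6 M reads per library, with 38.0% to 49.0% of values at a whole number of reads (tolerance 0.01), so no count model was used. Ileal depth was 36.4 M (B8) and 32.0 M (B9) after VSG and 21.5 M (B10) and 10.9 M (B1) after sham surgery. In the same order, 71.2%, 76.8%, 78.1% and 78.0% of genes were listed at 0. The ileal sham libraries correlated across genes at r = 0.313 (Pearson, log2 scale), and the ileal VSG libraries at 0.544. A gene can be listed at 0 because its estimate failed, so a 0 is given here only as listed. The sorted cells are labelled Lgr5+, yet Lgr5 was listed at 0 in the jejunal and ileal libraries of sham mouse B10. The summed level of 10 enterocyte markers (4625 to 35293 CPM, which are normalized counts scaled to a total of 1000000 in each library) exceeded that of 10 stem cell markers (224 to 3738) in every library. Fewer cells of a type and less RNA per cell cannot be told apart in such libraries.

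The library labelled jejunum of VSG mouse A12 stood apart from the other 5 jejunal libraries. It had 9.63 CPM of Gata4, a transcription factor of the proximal small intestine, where its jejunal peers had 118 to 188 and the ileal libraries had 0 to 46.2. All 14 proximal markers were lower in it than in any other jejunal library, a position that 12.8% of the 15857 jejunal genes tested had. Of 14 distal markers 9 were higher in CPM than in any other jejunal library, against 23.3% of all jejunal genes. On the normalized counts without this scaling 6 of the 14 were, and 8 with libraries scaled to the same upper quartile. All 14 proximal markers were lowest on each of these scales. Its summed proximal markers were 2200 CPM, below the ileal range of 2389 to 4988, and its summed distal markers were 7581 CPM, where its jejunal peers had 1866 to 4833 and the ileum had 8658 to 15880. The duodenal library of the same mouse had 195 CPM of Gata4, within the duodenal range of 150.3 to 222. Whether this library came from the labelled segment cannot be told from the files, so a jejunal log2 fold change that includes it may compare different positions along the gut. Fold changes of the 7 genes in the jejunum are therefore given with and without it. Sham library B10 also differed from the other jejunal libraries, with summed stem cell markers of 356 CPM against 1472 to 1996. Its summed enterocyte markers were 32977 CPM against 11065 to 18501. Without B10 a single jejunal sham library was left. The log2 fold change of Slc51b then went from 0.73 to 1.93 and that of Fgf15 from 5.97 to 3.15.

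**Figure D1:**
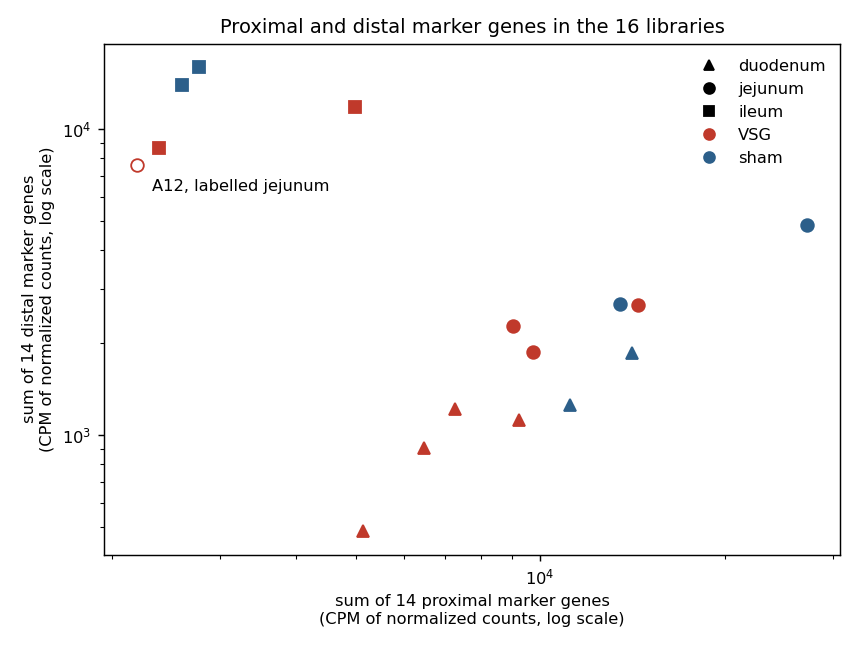
Summed CPM of 14 proximal (x axis, log scale) and 14 distal (y axis, log scale) marker genes in each of the 16 libraries, with segments shown by shape and surgeries by color. The open circle is the library labelled jejunum of mouse A12, at 2200 on the x axis and 7581 on the y axis, beside the 4 ileal squares and away from the other 5 jejunal circles.

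The ileum held most of the transcripts of 6 of the 7 genes. The tables of the 3 segments were normalized separately, so levels across segments are set side by side in CPM and were not tested. Mice B8, B10 and B1 gave libraries from all 3 segments. In these mice Fabp6 was at 0 to 1.81 CPM in the duodenum, 0.467 to 6.64 in the jejunum and 3307 to 8350 in the ileum. Slc10a2 was at 0 to 0.732 in the duodenum, 1.76 to 4.31 in the jejunum and 354 to 936 in the ileum, and Fgf15 was at 0 to 1.14, 0 to 4.2 and 113 to 249. These 3 genes were thus near or at 0 outside the ileum of each of these mice.

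The other 3 were expressed along the whole intestine. Slc51a was at 81.6 to 114 CPM in the duodenum, 136 to 217 in the jejunum and 986 to 1386 in the ileum of these mice, and Slc51b at 13.3 to 23.1, 15.4 to 58.2 and 214 to 426. Nr1h4 had the smallest step, from 26.6 to 50.6 in the duodenum and 21.5 to 53.2 in the jejunum to 169 to 219 in the ileum. Nr0b2 ran the other way. SHP mRNA was at 0 to 9.0 CPM in the 6 duodenal libraries and at 0 to 3.51 in the jejunal libraries, and was listed at 0 in all 4 ileal libraries.

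**Figure D2:**
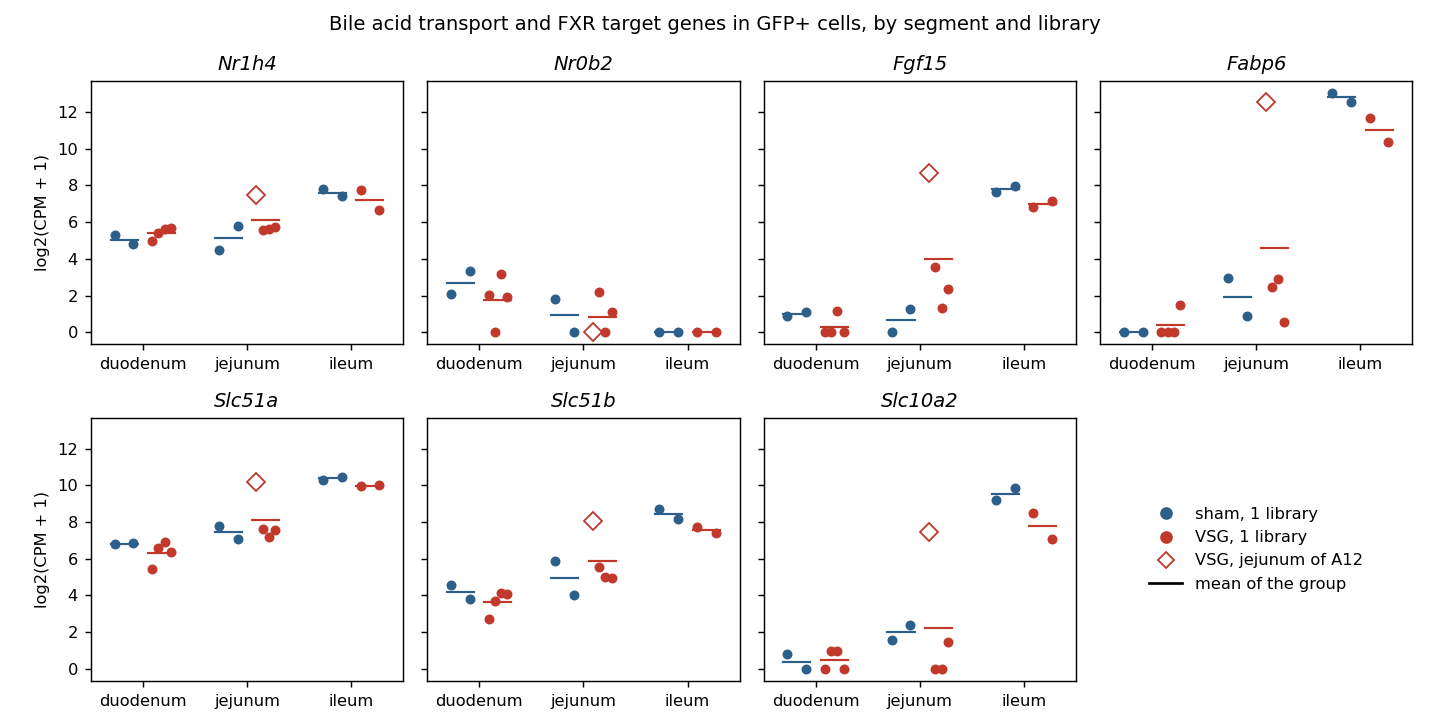
Levels of the 7 genes on the y axis, as log2(CPM + 1), in the libraries of each segment on the x axis, with 1 point per library and a line at the group mean. Sham libraries are blue and VSG libraries red, and the open diamond is the jejunal library of mouse A12. Fabp6, Fgf15 and Slc10a2 lie near 0 outside the ileum apart from that diamond, and in the ileum the red points of Fabp6, Fgf15, Slc51a, Slc51b and Slc10a2 lie below the blue points.

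Compared per kilobase of exon within the ileal sham libraries, Fabp6 was the most abundant, at 435909 normalized counts per kb in B10 and 282890 in B1. Slc51b (15009 and 9174) and Slc51a (9928 and 9747) came next and overlapped each other. They were followed by Slc10a2 (3526 and 5071) and then by Nr1h4 (2376 and 1646) and Fgf15 (1591 and 1834), which overlapped. OSTα and OSTβ must pair to reach the plasma membrane, and the ratio of Slc51a to Slc51b per kb lay between 0.661 and 1.96 over all 16 libraries.

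Fabp6 (chromosome 11, 43596049 to 43601540, minus strand, GRCm38) and Slc10a2 (chromosome 8, 5083219 to 5105351, minus strand) are the induced and the repressed gene with the steepest rise toward the ileum, so their promoters are shown, from 250 bases before to 50 bases after the RefSeq start (GRCm38.p6). Promoters of 6 of the 7 genes were found in the RefSeq table, and that of Fgf15 was not. They were searched on both strands, with up to 2 mismatches, for the inverted repeat IR-1 bound by FXR with RXR (AGGTCANTGACCT) and for the HNF1 motif (GTTAATNATTAAC). Capitals mark the matches. The Fabp6 window is chr11:43601513-43601812 and the Slc10a2 window is chr8:5105238-5105537, both on the minus strand.
Fabp6: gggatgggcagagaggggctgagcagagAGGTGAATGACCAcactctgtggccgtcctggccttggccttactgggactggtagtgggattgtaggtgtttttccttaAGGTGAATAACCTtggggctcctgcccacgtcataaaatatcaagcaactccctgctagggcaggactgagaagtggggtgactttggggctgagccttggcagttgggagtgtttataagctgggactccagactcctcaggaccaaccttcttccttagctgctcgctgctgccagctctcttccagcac
Slc10a2: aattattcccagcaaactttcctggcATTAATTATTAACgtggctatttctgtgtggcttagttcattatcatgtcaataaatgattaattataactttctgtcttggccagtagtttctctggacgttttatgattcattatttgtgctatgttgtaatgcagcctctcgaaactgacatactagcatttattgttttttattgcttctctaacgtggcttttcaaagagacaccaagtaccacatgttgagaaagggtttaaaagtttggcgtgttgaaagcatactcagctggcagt

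Of the 6 promoters only that of Fabp6 held IR-1 matches, beginning 222 and 142 bases before the start. Counted from 1 at the 5′ end of the motif, the first differs by C5G and T13A and the second by C5G and G9A. Such a match was present in 1.14% of the 32851 promoters of the same length. An HNF1 match began 224 bases before the start of Slc10a2, differing by G1A, and another, GTTAATCAGTAAA, 40 bases before the start of Nr1h4. The Nr1h4 window (chr10:89506609-89506908) lies inside the annotated gene (89454234 to 89533585, minus strand). The sequence before the outermost annotated start of Nr1h4 was therefore not searched. HNF1 matches were found in 1.36% of all promoters. The windows of Nr0b2, Slc51a and Slc51b held neither sequence. The matches describe these letters only, and binding was not measured.

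In the ileum the question was whether induced and repressed FXR targets differed between VSG and sham libraries, and in which direction. Of the 6 genes with ileal transcripts, 5 had lower normalized counts in both VSG libraries than in both sham libraries, the induced Fabp6, Fgf15, Slc51a and Slc51b and the repressed Slc10a2. None of them passed the thresholds of the test.

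Fabp6 had 72740 (B8) and 29162 (B9) normalized counts in the VSG libraries and 208801 (B10) and 135504 (B1) in the sham libraries. The groups did not overlap, and the VSG libraries differed from each other by more than the sham libraries did on a fold scale. The log2 fold change was -1.87 (standard error 0.49, 95% interval -3.08 to -0.65), with an exact permutation p = 0.333 and a limma adjusted p = 0.736.

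Slc10a2 had 7794 and 2931 normalized counts after VSG (B8 and B9) and 14638 and 21054 after sham surgery (B10 and B1). As for Fabp6, B9 was lowest and the groups did not overlap. Its log2 fold change of -1.88 (standard error 0.55, 95% interval -3.26 to -0.50) was close to that of Fabp6 in size and direction, with the same exact permutation p = 0.333 and adjusted p = 0.736.

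Fgf15 (chromosome 7, 144896531 to 144900953, plus strand) had 2483 and 3119 normalized counts after VSG and 4864 and 5608 after sham surgery, so that here B8 was the lowest. The log2 fold change was -0.91 (standard error 0.42, 95% interval -1.95 to 0.14). Slc51b had 4718 and 3678 counts against 10641 and 6504, a log2 fold change of -0.998 (standard error 0.43, 95% interval -2.07 to 0.07). Its partner Slc51a had 21684 and 22482 against 31750 and 31172, the tightest groups of the 5 genes and the smallest difference, -0.51 (standard error 0.26, 95% interval -1.16 to 0.14). These genes overlap others in the annotation (Fgf15 with Gm26793 and Gm39119, Slc51b with Rasl12 and Slc51a with Pcyt1a).

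The receptor itself overlapped between the groups. Nr1h4 had 4657 and 2227 normalized counts after VSG and 5472 and 3790 after sham surgery, and its log2 fold change of -0.50 had a 95% interval from -1.84 to 0.84. Nr0b2, listed at 0 in all 4 libraries, could not be compared.

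**Figure D3:**
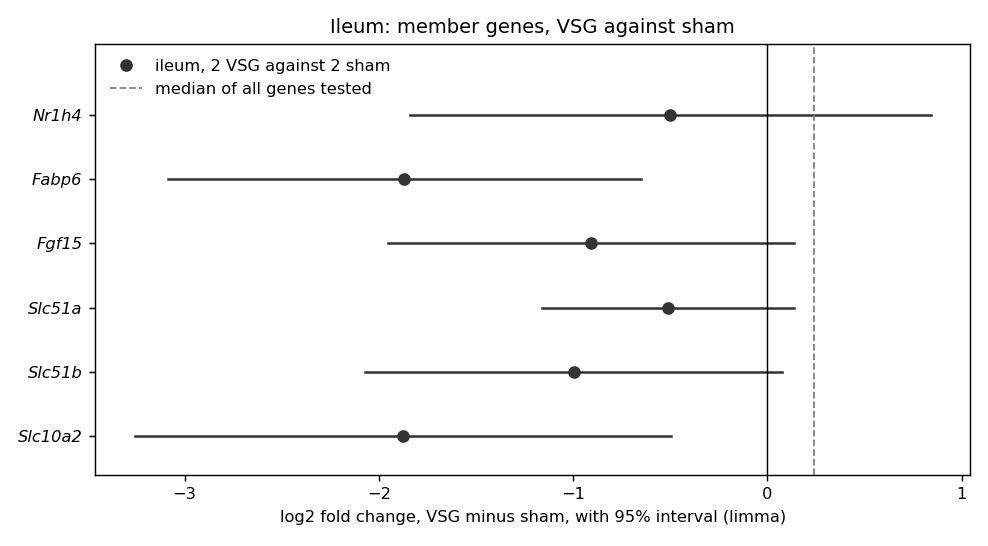
Ileal log2 fold changes (x axis, VSG minus sham, 2 libraries against 2) of the 6 genes with ileal transcripts, with 95% intervals from limma. The dashed line is the median of all ileal genes tested, at 0.24. All 6 points lie below 0, and the intervals of Fabp6 and Slc10a2 do not reach 0.

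None of the 13853 ileal genes tested passed the thresholds in limma (0%), which were p under 0.05, adjusted p under 0.2, absolute log2 fold change above 0.5 and mean normalized count above 50, and with 2 libraries against 2 an exact permutation test cannot go below p = 0.333. Without these thresholds 455 ileal genes had an unadjusted p under 0.05, Fabp6 and Slc10a2 among them, and limma without a variance trend called 463 genes, none of them one of the 7. Both VSG libraries lay below both sham libraries for 11.6% of ileal genes, against 5 of the 6 genes here. The same 5 genes lay so with libraries scaled to the same total (9.96% of all genes) and with quantile normalization (20.2%). The median log2 fold change of the 4 induced targets measured was -0.95, beside 0.24 over all ileal genes. That median of all genes was 0.35 with libraries scaled to the same total and 0.04 with quantile normalization. Relative to it, Fabp6 was at -2.11, Slc10a2 at -2.12, Slc51b at -1.24, Fgf15 at -1.15, Slc51a at -0.75 and Nr1h4 at -0.74.

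Other genes differed between the same libraries. Of the 14 distal markers, 7 were also lower in both ileal VSG libraries than in both sham libraries, against 11.6% of all ileal genes. The 14 had a median log2 fold change of -0.65 and a summed level of 8658 to 11811 CPM after VSG against 13929 to 15880 after sham surgery. Naaladl1, a brush border peptidase gene, had 52447 and 57597 normalized counts after VSG against 91952 and 115662 (log2 fold change -0.91), and the mucin gene Muc3 had a log2 fold change of -0.70. Clec2h, the most abundant marker of the list, had 48824 and 65900 against 51737 and 58567, and overlapped. Tmigd1, a distal enterocyte gene, had 8144 and 6887 against 26803 and 31296 (log2 fold change -1.95). Proximal markers had a negative log2 fold change in 3 of 14 genes and a median of 0.26, and none was lower in both VSG libraries.

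Summed levels of some cell type markers differed as well. Summed stem cell markers were 633 to 956 CPM in the ileal VSG libraries and 224 to 467 in the sham libraries, with 1 of the 10 genes listed at 0 in B9, 4 in B10 and 2 in B1. Of the 9 that passed the filter, 5 were higher and 1 was lower in both VSG libraries than in both sham libraries. Over all ileal genes 17% were higher and 11.6% lower in this way. The median log2 fold change of the 9 was 2.14, beside 0.24 over all ileal genes. Summed enterocyte markers were 20962 and 35293 after VSG against 34585 and 34519, so that the groups overlapped. Of the 10 enterocyte genes 3 were lower in both VSG libraries, against 11.6% of all ileal genes, and none had an unadjusted p under 0.05. The immune list summed to 1295 to 1579 against 1644 to 2740, and its lymphocyte genes Cd8a and Cd79a were listed at 0. Of its 7 genes 3 had a mean above 10 normalized counts, with a median log2 fold change of 3.77. Among these 1 was lower and 1 higher in both VSG libraries than in both sham libraries, so the sum does not describe the list. Enteroendocrine markers summed to 315 to 438 after VSG against 161 to 268, and goblet and Paneth cell markers to 5410 to 7242 against 2029 to 4255. For these 2 lists only the sums were apart. Taken singly, 1 of 7 enteroendocrine and 0 of 6 goblet and Paneth genes had both VSG libraries above both sham libraries, against 17% of all ileal genes. The stroma and endothelium list summed to 6.68 to 8.32 against 5.18 to 37.4. The part of these differences in those of the bile acid genes was not tested.

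Sham library B10, in which Lgr5 was listed at 0, and VSG library B9 were left out in turn. A gene lower in both VSG libraries than in both sham libraries stays so when 1 library is removed. The same 5 genes therefore had to lie lower without B10, as 30.8% of all ileal genes then did. Whether B10 decided the ileal pattern cannot be told in this way. Without VSG library B9 the log2 fold change of Fabp6 shrank from -1.87 to -1.21 (standard error 1.39, limma adjusted p = 0.891) and that of Slc10a2 from -1.88 to -1.17 (standard error 0.40, adjusted p = 0.563), and that of Nr1h4 was 0.03. Slc51b went from -0.998 to -0.64 without sham library B10. Without B9, the same 5 genes again had to lie below both sham libraries, as 19.4% of all genes did.

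Set beside the ileum, the A12 library labelled jejunum had levels of 6 of the 7 genes within or above the ileal range. Its Fabp6 level was 5884 CPM, 886 times that of the highest other jejunal library (6.64) and within the ileal range of 1327 to 8350. Slc10a2 was at 176 CPM, 40.8 times the highest other jejunal value and within the ileal range of 133 to 936. Fgf15 was at 413 CPM, 38.7 times the highest other jejunal value (10.7) and above the ileal range of 113 to 249. Induced and repressed targets were thus high together in this library.

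The genes expressed along the whole intestine showed the same with smaller steps. In the A12 library Slc51a was at 1149 CPM against 136 to 217 in the other jejunal libraries, Slc51b at 268 against 15.4 to 58.2, and Nr1h4 at 177 against 21.5 to 53.2. All 3 values fell within the ileal ranges of 986 to 1386, 167 to 426 and 101 to 219. Nr0b2 was listed at 0, as in the ileum and in 2 other jejunal libraries. The duodenal library of the same mouse had none of this, with Fabp6, Fgf15 and Slc10a2 all listed at 0 and Slc51a, at 41.7 CPM, the lowest of the 6 duodenal libraries. Across 10827 genes without these 7, the A12 library had Spearman correlations of 0.734 to 0.830 with its jejunal peers and of 0.719 to 0.824 with ileal libraries. Genes are not independent replicates, and these ranges overlap. The other 5 jejunal libraries had correlations of 0.662 to 0.848 with the ileal libraries, a range that includes that of A12, so by this measure A12 was no closer to the ileum than they were.

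In the jejunum, none of the 7 genes passed the thresholds, where 2 of the 15857 genes tested did (0.0126%), and without A12 none did either, where 0.0064% of genes did. Fgf15 alone had VSG libraries that all lay above the sham libraries, a position held by 6.59% of jejunal genes, and by 10.6% without A12. Its normalized counts were 13821 (A12), 368 (B13), 51.1 (B14) and 142 (B8) after VSG, and 0 (B10) and 48.9 (B1) after sham surgery. The nearest values of the groups, 51.1 and 48.9, were almost equal. Its log2 fold change was 5.97 (95% interval 0.58 to 11.35, exact permutation p = 0.133, adjusted p = 0.760 in limma) with A12 and 4.31 (95% interval -1.14 to 9.76, exact permutation p = 0.2, adjusted p = 0.774) without it. One sham value listed at 0 weighs on both.

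Fabp6 had 196951 normalized counts in A12 and 156, 222 and 15.8 in the other jejunal VSG libraries (B13, B14 and B8), against 313 and 28.6 after sham surgery. Its log2 fold change went from 2.60 to -0.20 (95% interval -4.63 to 4.23) without A12. Slc10a2 had 5886 normalized counts in A12, 0 in B13 and B14 and 59.7 in B8, against 94.9 and 145 after sham surgery. Its log2 fold change was -2.28 (95% interval -9.87 to 5.32) with A12 and -4.91 (95% interval -11.11 to 1.28, exact permutation p = 0.2) without it. With A12 the mean was 1486 after VSG against 120 after sham surgery, so the negative sign rests on the 2 values listed at 0. With a pseudocount of 10 the log2 fold change with A12 was -0.67. Without A12, its 3 VSG libraries all lay below the sham libraries, as for 8.87% of jejunal genes then tested. The exact test of 3 against 2 libraries cannot go below p = 0.2, and the counts behind this difference are low. Distal markers differed in the same direction among these libraries, with a negative log2 fold change in 12 of 14 (median -0.99), every VSG library below both sham libraries for 8 and an unadjusted p under 0.05 for 4. Their summed level was 1866 to 2648 CPM in the 3 VSG libraries and 2675 to 4833 after sham surgery. Proximal and enterocyte markers were lower there as well. All 14 proximal markers had a negative log2 fold change (median -1.01). The groups were apart for 7 of them, and 5 had an unadjusted p under 0.05. All 10 enterocyte markers were lower too (median -0.92), 2 of them with the groups apart. The 10 stem cell markers went the other way (median 1.01). The part of these lists in the difference of Slc10a2 was not tested.

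The log2 fold changes of the exporter genes and the receptor were also smaller without A12. Slc51a had 38454 normalized counts in A12 and 6742, 4950 and 6275 in the other VSG libraries, against 10206 and 4579, and its log2 fold change was 0.47 with A12 and -0.20 (95% interval -1.13 to 0.72) without it. Slc51b had 8982 in A12 and 1595, 1053 and 1002 in the others, against 2741 and 518, with log2 fold changes of 0.73 and 0.00 (95% interval -1.60 to 1.59). Nr1h4 had 5937 in A12 and 1586, 1662 and 1755 in the others, against 1014 and 1791, with log2 fold changes of 0.76 and 0.31 (95% interval -0.67 to 1.28). Nr0b2 was listed at 0 in 3 of the 6 libraries and at 38.7 to 121 in the rest. Its log2 fold change was -0.40 with A12 and 0.62 (95% interval -6.61 to 7.85) without it.

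**Figure D4:**
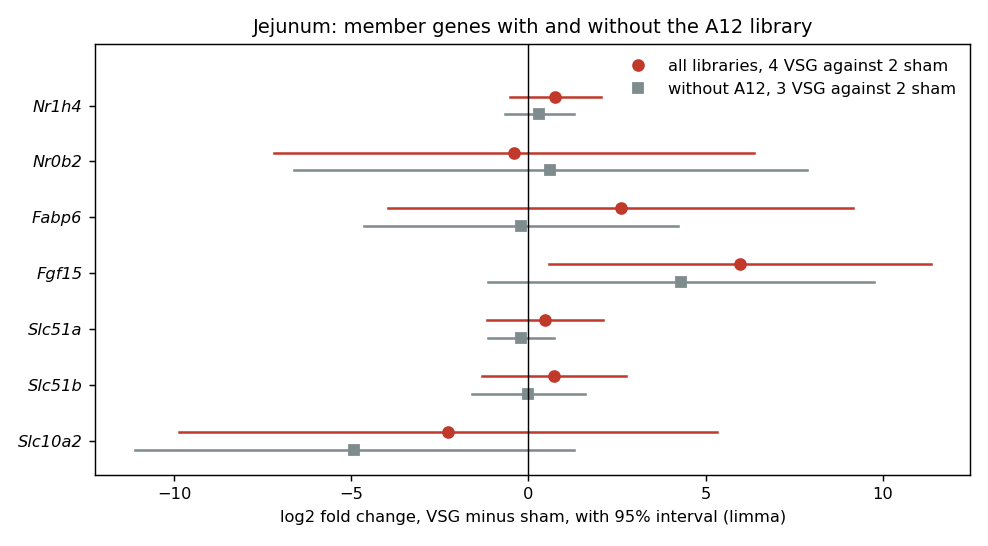
Jejunal log2 fold changes (x axis, VSG minus sham) of the 7 genes with 95% intervals from limma, with all libraries in red and without the A12 library in gray. Leaving out A12 moves Fabp6 from 2.60 to -0.20 and leaves every interval across 0.

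In the duodenum, where 4 of the 16867 genes tested passed the thresholds (0.0237%), none of the 7 genes did, and for none of them did the groups separate, against 14.4% of all duodenal genes. Slc51a had 1978 (A12), 4410 (B13), 5505 (B14) and 3829 (B8) normalized counts after VSG and 5637 (B10) and 5481 (B1) after sham surgery, so that 3 of the 4 VSG libraries lay below both sham libraries. Its log2 fold change was -0.59 (95% interval -1.44 to 0.25, exact permutation p = 0.267). Slc51b had 265, 555, 790 and 734 against 1193 and 636, a log2 fold change of -0.69 (95% interval -1.99 to 0.61).

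Nr1h4 was evenly expressed in the duodenum, at 1462, 1948, 2284 and 2373 normalized counts after VSG and 1968 and 1276 after sham surgery (log2 fold change 0.32, 95% interval -0.42 to 1.06). Nr0b2 had 145, 0, 370 and 129 against 168 and 432, and its interval ran from -7.33 to 2.54. Fgf15 was listed at 0 in 3 VSG libraries and at 56.8 in B14, against 44.7 and 54.8 after sham surgery. Fabp6 was listed above 0 only in B8, at 85.1, and Slc10a2 was listed at 0 in 3 of the 6 libraries and did not exceed 45.7.

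The wider pathway was read from a list of 37 genes of bile acid receptors and partners, other carriers and pumps, FGF15 signaling and bile acid synthesis, and further FXR targets described in the intestine. Of these, 26 duodenal, 27 jejunal and 26 ileal genes passed the filter on low values. One gene passed the thresholds. Abcc2, the apical efflux pump MRP2 that exports conjugated bile acids and other organic anions, fell in the duodenum from 20885 and 14779 normalized counts after sham surgery to 4093, 6334, 4793 and 4459 after VSG, a log2 fold change of -1.86 (standard error 0.25, limma adjusted p = 0.196). Of 14 alternatives, 8 ended this call (adjusted p 0.123 to 0.801 over all 14), among them leaving out VSG library B14 (0.252) or B8 (0.60) and fitting a replicate block (0.801). Its groups were also apart in the jejunum, with 1272 (A12), 10346, 4372 and 4492 after VSG and 36825 and 10614 after sham surgery (log2 fold change -2.30, and -1.75 without A12, adjusted p = 0.760 and 0.774). The nearest values, 10346 and 10614, were almost equal, and 6.21% of jejunal genes lay below in this way.

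Markers of enterocytes and of the proximal and distal intestine were lower in the same duodenal libraries. Of 14 proximal markers, 14 had a negative log2 fold change (median -1.07), 10 of them with every VSG library below both sham libraries, against 8.01% of all duodenal genes, and 10 with an unadjusted p under 0.05. Their summed level was 5146 to 9235 CPM after VSG and 11200 to 14127 after sham surgery. All 10 enterocyte markers had a negative log2 fold change as well (median -0.65), 4 of them with the groups apart, at a summed 4625 to 11609 against 11453 to 15996 CPM. Of the 14 distal markers 13 passed the filter on low values. All 13 had a negative log2 fold change (median -1.01), 5 of them with every VSG library below both sham libraries. Distal markers summed to 483 to 1218 CPM after VSG and 1251 to 1845 after sham surgery. The part of these lists in the difference of Abcc2 was not tested.

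At an unadjusted p under 0.05, 1 list gene was higher and 3 were lower in the duodenum, against 2.79% and 3.48% of all genes, 3 were higher and 2 lower in the jejunum, against 3.63% and 2.4%, and there was none in the ileum, against 2.09% and 1.19%. None but Abcc2 passed the thresholds. In the duodenum these were Nr1i3, the xenobiotic receptor CAR (log2 fold change -1.03), Malrd1, a gene known to affect FGF15 production (-0.50), and Nos2, the inducible nitric oxide synthase (4.54). The groups overlapped for Nos2, at 619, 265, 193 and 655 normalized counts after VSG against 266 (B10) and a value listed at 0 (B1), on which its log2 fold change rests. In the jejunum they were Nos2 (4.15, and 3.06 without A12), the carbonic anhydrase gene Car12 (5.33), the sphingosine phosphate receptor gene S1pr2 (5.61) and the nuclear receptor gene Hnf4g (-0.97). Listed zeros set the size of 2 of these. Car12 had 505 to 1140 normalized counts after VSG against 0 (B10) and 453 (B1), and S1pr2 had only 22.6 to 98.4 against 0 in both sham libraries. Without A12, Nr1i3 (-1.14) and Rxra, the partner of FXR (-0.99), were also under 0.05 there and Hnf4g was not, with 3 list genes higher and 3 lower, against 3.28% and 2.18% of all genes. Nos2 also set A12 apart, at 542 CPM, where its jejunal peers had 2.20 to 41.7 and the ileum had 130 to 468.

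The 3 most abundant genes of the list were Hnf4a, Vdr and Maf. Hnf4a, a nuclear receptor of enterocytes, was at 445 to 1012 CPM across the 16 libraries, Vdr, the vitamin D receptor that also senses lithocholic acid, at 234 to 815, and Maf, a transcription factor gene, at 76.3 to 1429. The 6 list genes listed at 0 in every library were Rxrg, the bile acid receptor gene Gpbar1 (TGR5), the hepatocyte transporters Slc10a1 and Abcb11, and the synthesis genes Cyp8b1 and Cyp7b1. The list had a median log2 fold change of -0.16 (duodenum), 0.12 (jejunum) and 0.21 (ileum), beside 0.01, 0.11 and 0.24 over all genes. Without A12 the jejunal median was 0.17, beside 0.13 over all genes.

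The genes whose levels followed each member most closely over the 16 libraries, among 14296 genes, were given by the Pearson correlation of log2(CPM + 1) and are a description, since the libraries share mice and segments. Tmigd1 was among the 3 nearest of Fabp6 (r = 0.97), Slc10a2 (0.98), Fgf15 (0.96) and Slc51a (0.97). The magnesium channel gene Trpm6 was near Slc10a2 (0.98) and Fabp6 (0.97), and Nudt4 was near Slc51a (0.98), Slc51b (0.97) and Fabp6 (0.97). The brush border protease gene Mep1a followed Slc51a (0.97) and Fgf15 (0.95), and Phgr1 followed Fgf15 (0.97) and Nr1h4 (0.94). Krt8, an epithelial keratin gene, was nearest to Nr1h4 (0.97), followed by Phgr1 and Spint2 (0.94). Tgfbi and Ms4a8a (both 0.96) stood beside Nudt4 for Slc51b, and Ereg (0.97) beside Trpm6 for Slc10a2. Nr0b2, low throughout, was nearest to Fam161b (0.90), Cklf (0.84) and Trmt10a (0.83).

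Among the members, Slc51a and Slc51b were the pair most alike (r = 0.98, also without the A12 jejunal library). Slc10a2 followed Fabp6 at r = 0.96 with and without that library, and Nr1h4 followed the 5 genes other than Nr0b2 at r = 0.86 to 0.92. The correlations of Nr0b2 with the others lay between -0.67 and -0.58.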

How the data were processed

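RNA-Seq reads of 16 libraries of sorted GFP+ cells had been aligned by the authors to mm10 with STAR 2.5.3a, quantified with Salmon 0.6.0 and normalized with DESeq2 within each segment. The authors deposited these normalized counts as signal values per gene and library, and libraries with low mapping are not analysed here. Tables of the authors' own comparisons were not used. Normalization by segment means that the factor of the A12 library was set together with those of the other jejunal libraries, and that no test crosses segments. The members and gene lists were chosen with earlier results of these data known.

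Each segment was fitted with limma 3.58.1 (R 4.3.3, trended variance) on log2 of the normalized count plus 1, for genes whose mean exceeded 10, with Benjamini-Hochberg adjustment over all of them. On this scale the added 1 lowers fold changes of low genes, while values listed at 0 can enlarge them. Duodenal Fgf15, with means of 14.2 after VSG and 49.8 after sham surgery, had a log2 fold change of -4.20. With a pseudocount of 10 it was -1.89. Exact permutation tests over libraries were two-sided (the smaller tail doubled), with a smallest p of 0.133 for 4 against 2 libraries. Each library is 1 mouse, and the mice of the groups differ. Marker, pathway and likeness genes were named by fixed rules (p under 0.05, the 3 highest means, 0 in every library, the 3 nearest genes), with Gata4 beside them. Cd8a and Cd79a were chosen after their values were seen. Gene positions and exon lengths came from GENCODE M21. Alternatives were other pseudocounts and filters, total and quantile scaling, limma without trend, leaving out each library and a replicate block. Other steps used scipy 1.17.1, pandas 2.3.3 and numpy 2.4.6 in Python 3.11.15, with plots by matplotlib 3.10.9.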

Additional observations from a re-analysis of the deposited data

Results flagged for a closer look

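With the gap to the nearest library divided by the range of the group, 8 of the 14 sets of 4 libraries with differing values had 1 library apart. Chance gives about 1 in 20 for independent values, a rate that does not apply to these sets. In 6 of them this was the jejunal VSG library of A12, at 5937 normalized counts of Nr1h4, 13821 of Fgf15, 196951 of Fabp6, 38454 of Slc51a, 8982 of Slc51b and 5886 of Slc10a2. The sets share libraries and their genes vary together, so these are not separate events. The others were duodenal VSG libraries in which a gene was found in 1 library and listed at 0 in the other 3, so that the gap equals the range whatever the value, Fgf15 in B14 at 56.8 and Fabp6 in B8 at 85.1 normalized counts.

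Fgf15 was higher in every jejunal VSG library than in either sham library (log2 fold change 5.97, and 4.31 without A12) and lower in both ileal VSG libraries than in both sham libraries (-0.91). The difference between the segments was not tested, since their tables were normalized separately.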

How the results depend on the processing

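No member gene was called in any segment under any of the alternatives run, and the 54 alternatives of the counts and medians kept their direction and stayed within 1.5 times, or within 1 SD, of the value given. The ileal median of the 4 induced targets lay between -1.08 and -0.83 when 1 library was left out. In place of 7 distal markers, 7 to 9 lay lower in the ileal VSG libraries without B10 or B9. Of the members 5 did in each case. Neither number could fall, since a separation seen with all libraries stays when 1 is left out. Both sets were chosen after seeing the data. Of the 250 fold changes of single members, 238 kept their direction and 12 reversed, all on leaving out 1 library. The log2 fold changes then ranged from -2.52 to 2.76 for duodenal Slc10a2, from -3.87 to 3.06 for jejunal Nr0b2, from -0.20 to 4.31 for jejunal Fabp6, from -0.20 to 1.05 for jejunal Slc51a, from -0.47 to 1.93 for jejunal Slc51b and from -1.03 to 0.032 for ileal Nr1h4. The cause was not tested. Over all genes the number called ranged from 0 to 259 in the duodenum (0 without the filter, 43 without trend), from 1 to 2710 in the jejunum (61 without trend, 2710 without sham B1) and from 0 to 631 in the ileum (463 without trend), where leaving out a library left 1 library against 2 and that library was assumed to vary like the others. With the replicate block in the duodenum 0 members and 0 genes were called, and libraries with the same number, which come from different mice, did not deviate together (r = -0.05 and -0.03). With 2 to 4 libraries a group, the low counts of Fabp6, Fgf15, Slc10a2 and Nr0b2 outside the ileum limit what could be detected.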
